A study of Mus musculus with 9 samples.

Results

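The endothelial identity genes are 10 genes, Pecam1, Cdh5, Emcn, Erg, Fli1, Egfl7, Esam, Cldn5, Sox17 and Vwf, that are used to recognise the cells lining blood vessels. They were taken by gene symbol from a table of read counts for 54532 mouse genes, where each of the 10 matched a single row. Bulk mRNA sequencing was performed on cultured adipose-derived stem cells (ASCs) of C57BL/6 mice from 3 fat depots. Sub-ASCs came from subcutaneous fat, Ab-ASCs from abdominal fat and PVASCs from perivascular fat, the fat around arteries, with 3 libraries per group and 9 in all. No sorting of cells before culture is described. Every group was grown in the same stem cell medium with serum, leukemia inhibitory factor and FGF, and received no endothelial induction. Cells were harvested at passages 3 to 6, and the passage of each group or library is not given in the sources used here. The age and sex of the mice, and whether the 3 libraries of a group came from separate mice or cultures, are not given in the sources used here, so p-values measure the spread between these libraries, which may be technical.

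Endothelial cells hold together through junction proteins such as VE-cadherin (Cdh5), CD31 (Pecam1), Esam and claudin-5 (Cldn5), and carry surface and secreted products such as endomucin (Emcn), von Willebrand factor (Vwf) and Egfl7. Their transcription depends on the ETS family factors Erg and Fli1, which bind DNA around a GGAA core, and on SOX family factors such as Sox17, which is known for its role in arteries. In fat, endothelial cells of capillaries surround the adipocytes, and stromal cells with stem cell properties lie along the vessels. Several of these genes are not restricted to the endothelium: Pecam1 and Fli1 are also used by blood cells, and Vwf and Pecam1 by platelets.

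The promoters of 4 of the 10 genes could be matched by symbol to the RefSeq windows for GRCm38.p6, and they are shown because Emcn, Egfl7 and Erg had the same order of groups and Cldn5 another. Each sequence is the 250 bases before a RefSeq start site, 5′ to 3′ on the strand of the gene, with the ETS core GGAA, or TTCC where it lies on the other strand, in capitals and all else in lower case. The Emcn window is chr3:137340828-137341077 (+), and its last 11 bases lie within the gene as listed in the count table. The Egfl7 window is chr2:26580833-26581082 (+), one of 3 for this gene, whose start site lies 1069 bases inside the listed gene. The Erg window is chr16:95586594-95586843 (-), one of 3, and the Cldn5 window is chr16:18776597-18776846 (+).
Emcn: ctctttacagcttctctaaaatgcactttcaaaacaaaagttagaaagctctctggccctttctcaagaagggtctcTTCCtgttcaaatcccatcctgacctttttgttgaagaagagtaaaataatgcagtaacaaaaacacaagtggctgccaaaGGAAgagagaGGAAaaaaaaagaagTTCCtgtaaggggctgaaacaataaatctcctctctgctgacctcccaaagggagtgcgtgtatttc
Egfl7: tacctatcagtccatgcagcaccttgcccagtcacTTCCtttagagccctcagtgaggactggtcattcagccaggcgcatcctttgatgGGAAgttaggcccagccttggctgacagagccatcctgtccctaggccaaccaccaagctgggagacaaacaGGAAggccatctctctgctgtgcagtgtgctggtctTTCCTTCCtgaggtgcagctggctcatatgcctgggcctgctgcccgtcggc
Erg: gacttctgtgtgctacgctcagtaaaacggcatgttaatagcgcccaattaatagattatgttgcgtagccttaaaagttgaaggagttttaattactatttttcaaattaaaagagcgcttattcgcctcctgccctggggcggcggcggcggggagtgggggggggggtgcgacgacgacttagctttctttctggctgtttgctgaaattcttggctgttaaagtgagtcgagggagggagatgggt
Cldn5: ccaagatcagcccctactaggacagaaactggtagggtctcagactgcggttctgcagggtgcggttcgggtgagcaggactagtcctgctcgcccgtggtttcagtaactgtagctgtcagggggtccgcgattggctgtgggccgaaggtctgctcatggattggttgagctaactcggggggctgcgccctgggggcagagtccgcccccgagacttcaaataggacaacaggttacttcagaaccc
The Emcn window held 4 GGAA matches, at 173, 92, 82 and 67 bases before the start, and the Egfl7 window held 5, at 215, 160, 88, 52 and 48 bases. No GGAA was in the Erg and Cldn5 windows. Over all 32851 promoter windows searched the same way on both strands, 93.4% held at least 1 GGAA (median 3 matches) and 6.55% held none. The longer ETS motif CAGGAAG, which contains GGAA, was found once in Emcn and 2 times in Egfl7, against 10.8% of all windows with at least 1. The SOX motif AACAAT was found once in Emcn, 50 bases before the start (9.42% of all windows), and the GC box GGGCGG was found once each in Erg and Cldn5, 111 and 45 bases before the start (32.7% of all windows). The ETS motif CCGGAA (12.0%), the GATA motif AGATAA (9.99%) and TATAAA (12.4%) were in none of the 4 windows. A match is a description of letters and not a site at which a factor was shown to bind. The other members are Pecam1, Cdh5, Fli1, Esam, Sox17 and Vwf.

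Library totals ranged from 20524173 to 29881036 counted reads, and the floor of 3 reads, below which no fold was formed, equals 0.0916 to 0.161 CPM depending on the library, for counting error only. CPM is the number of reads of a gene relative to all counted reads of its library. All 10 genes passed the filter on low counts, as did 16526 genes in all, and every member had at least 15 reads in each library. The CPM values were scaled between libraries by TMM, and differences were tested with the quasi-likelihood F-test of edgeR over all 9 libraries with Benjamini-Hochberg adjustment over the 16526 genes, at a threshold of 0.05. Ab-ASC replicate 1 stood apart from its group, with a chi-square per gene of 18.5 and 29.4 against the other Ab-ASC libraries, where all other pairs within a group lay between 2.92 and 8.20. In bulk RNA, fewer cells of a type and less RNA per cell cannot be told apart. As for the labelled cell type, all 12 genes of a stromal list were measured in every group. Their summed level was 33263 to 33867 CPM in Sub-ASCs, 12606 to 13095 CPM in Ab-ASCs and 8029.9 to 8331.8 CPM in PVASCs. Of the 12, 3 were higher and 9 lower in PVASCs than in Sub-ASCs (median log2 fold change -2.09), beside 34.7% and 35.7% of all genes. The counts against Ab-ASCs were 3 higher and 9 lower (-0.49), beside 24.7% and 32.1%. For Ab-ASCs against Sub-ASCs, 2 were higher and 10 lower (-1.57), beside 37.0% and 38.3%.

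Most endothelial identity genes were highest in PVASCs, intermediate in Sub-ASCs and lowest in Ab-ASCs. 7 of the 10, namely Emcn, Cdh5, Pecam1, Egfl7, Erg, Esam and Fli1, had this order with an adjusted p under 0.05 in each of the 3 comparisons, and 2.10% of all genes tested did. Cldn5 broke the pattern most, since it was high in Sub-ASCs and low in both other groups. Sox17 and Vwf were low everywhere and moved little. The summed level of the 10 genes was 839 to 843 CPM in PVASCs, 165 to 173 CPM in Sub-ASCs and 58.9 to 63.0 CPM in Ab-ASCs, so the groups did not overlap.

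**Figure D1:**
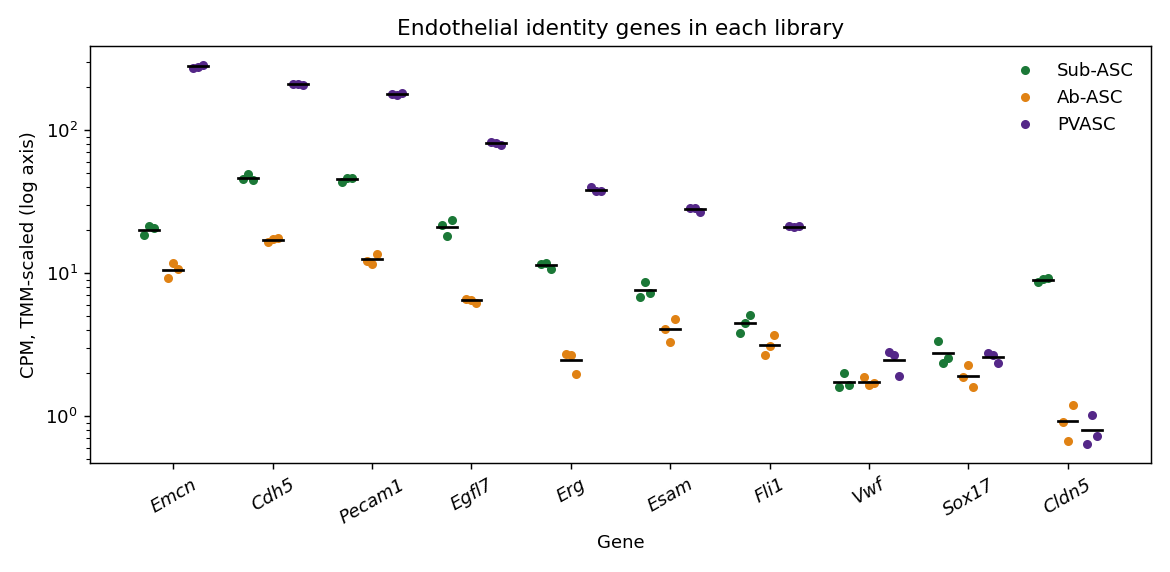
TMM-scaled CPM (log axis) of the 10 endothelial identity genes in each of the 9 libraries, one point per library and a bar at the mean of 3 libraries, with Sub-ASC in green, Ab-ASC in orange and PVASC in purple. From Emcn to Fli1 the 3 groups are separate with PVASC on top, whereas Cldn5 is on top in Sub-ASCs (8.71 to 9.22 CPM) and the points of Vwf and Sox17 lie close together.

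Against Sub-ASCs, 8 of the 10 genes were higher and 1 was lower in PVASCs, where 70.4% of all genes tested passed the test, 34.7% higher and 35.7% lower. Their median log2 fold change was 1.92, and that of all genes tested was -0.011. The libraries of the groups did not overlap for 8 members (77.3% of all genes), with 7 above and 1 below (38.3% and 39.0% of all genes). Against Ab-ASCs, 8 were higher and 0 were lower in PVASCs, where 56.9% of all genes passed, 24.7% higher and 32.1% lower (4305 genes higher and 4149 lower with only these 2 groups in the fit). Their median was 3.20 and that of all genes was -0.055. PVASC libraries lay above all Ab-ASC libraries for 9 genes (28.3% of all genes, and 63.9% in either direction), the exception being Cldn5. Between Ab-ASCs and Sub-ASCs, 9 genes were lower and 0 were higher in Ab-ASCs, where 75.3% of all genes passed, 38.3% lower and 37.0% higher. Here the median was -1.18 and that of all genes was -0.026, and 9 genes lay below in every library (39.1% of all genes, and 76.5% in either direction), the exception being Vwf. Since each pair of comparisons shares a group, their counts are not independent of each other. Without Ab-ASC replicate 1, the members called were 9, 7 and 8 in these comparisons, since Vwf against Ab-ASCs and Sox17 between Ab-ASCs and Sub-ASCs were lost.

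**Figure D2:**
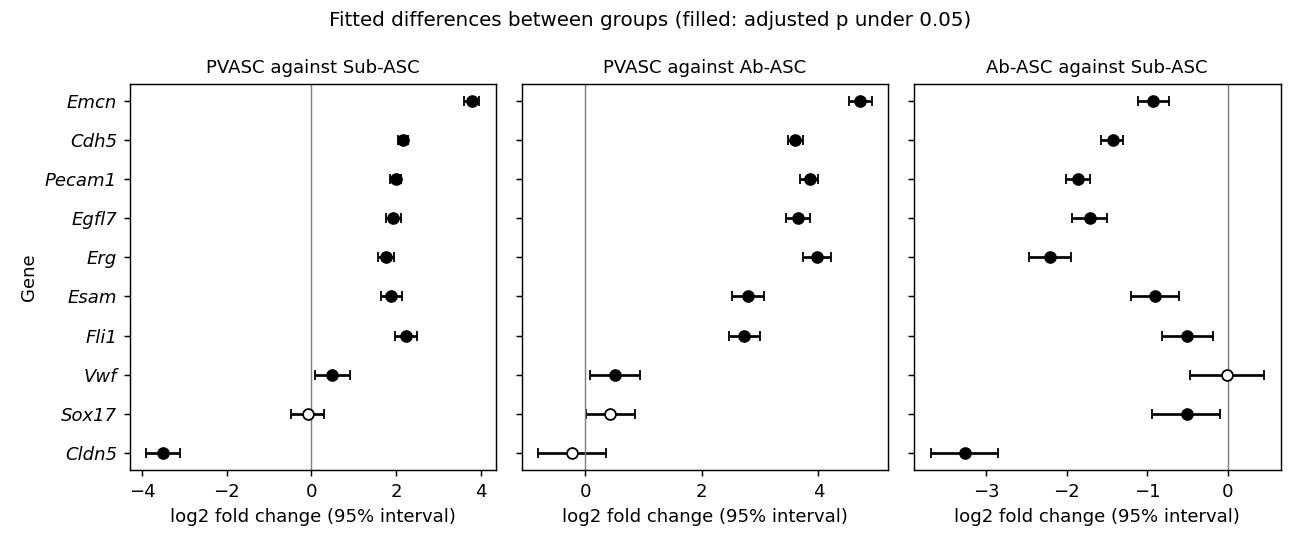
Fitted log2 fold change of each endothelial identity gene with its unadjusted 95% interval, one panel per comparison, where filled points passed the adjusted threshold and open points did not. Against Ab-ASCs the 7 genes from Emcn to Fli1 lie between 2.73 and 4.71, whereas Cldn5 lies at -3.50 against Sub-ASCs, apart from all other members.

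Among the junction genes, Cdh5 encodes VE-cadherin, the adhesion molecule of endothelial adherens junctions, and lies on chr8:104101625-104144511 (+). Its level was 211, 209 and 207 CPM in the PVASC libraries, 45.7, 49.2 and 44.5 CPM in Sub-ASCs and 16.6, 17.4 and 17.6 CPM in Ab-ASCs. The spread within each group was far smaller than the steps between the groups. Cdh5 was 4.49-fold above Sub-ASCs in PVASCs (log2 fold change 2.17, SE 0.056, adjusted p = 3.72e-12, edgeR) and 12.2-fold higher than in Ab-ASCs (3.60, SE 0.061, adjusted p = 1.86e-12, edgeR). In Sub-ASCs it was 2.70-fold higher than in Ab-ASCs (adjusted p = 3.27e-10, edgeR). An antisense gene overlapping Cdh5, Gm29682, had 3 reads over all libraries.

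Pecam1 encodes CD31, an adhesion molecule of endothelial contacts that leukocytes and platelets also carry, and lies on chr11:106654217-106750628 (-). PVASC libraries had 180, 177 and 182 CPM, Sub-ASC libraries 43.3, 46.1 and 46.4 CPM and Ab-ASC libraries 12.2, 11.6 and 13.6 CPM. No library of one group came near another group. The difference was 3.97-fold between PVASCs and Sub-ASCs (log2 fold change 1.99, SE 0.062, adjusted p = 2.11e-11, edgeR), 14.4-fold between PVASCs and Ab-ASCs (3.85, SE 0.070, adjusted p = 3.05e-12) and 3.63-fold between Sub-ASCs and Ab-ASCs (1.05e-10).

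Esam, an immunoglobulin-type adhesion molecule of endothelial tight junctions on chr9:37528078-37538319 (+), was lower in level but had the same order. Its CPM values were 28.6, 28.7 and 26.9 in PVASCs, 6.82, 8.60 and 7.28 in Sub-ASCs, and 4.08, 3.29 and 4.81 in Ab-ASCs. The gap between Sub-ASCs and Ab-ASCs was narrower than for Cdh5 and Pecam1, with the lowest Sub-ASC library still above the highest Ab-ASC library. Esam was 3.71-fold above Sub-ASCs in PVASCs (log2 fold change 1.89, SE 0.11, adjusted p = 1.25e-08, edgeR), 6.92-fold higher than in Ab-ASCs (2.79, SE 0.13, adjusted p = 3.90e-09) and 1.86-fold higher in Sub-ASCs than in Ab-ASCs (7.95e-05).

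Cldn5, the dominant claudin of tight junctions in endothelium with a tight barrier, was the member that broke the pattern. It lies on chr16:18776847-18778262 (+). There were 203, 231 and 242 reads in the Sub-ASC libraries, 17, 15 and 27 reads in Ab-ASCs and 21, 30 and 23 reads in PVASCs, or 8.71, 9.07 and 9.22 CPM against 0.912, 0.666 and 1.20 CPM and 0.641, 1.02 and 0.731 CPM. Sub-ASC libraries were well apart from the rest, and the Ab-ASC and PVASC libraries overlapped. Cldn5 was 11.3-fold higher in Sub-ASCs than in PVASCs (log2 fold change of PVASCs against Sub-ASCs -3.50, SE 0.18, adjusted p = 2.64e-09, edgeR) and 9.71-fold higher than in Ab-ASCs (-3.27 for Ab-ASCs against Sub-ASCs, SE 0.19, adjusted p = 8.21e-09). PVASCs and Ab-ASCs were not told apart, at a log2 fold change of -0.23 with a 95% interval from -0.80 to 0.35 (adjusted p = 0.479). An adjusted p under 0.05 with Sub-ASCs above both other groups was found for 28.7% of all genes tested.

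Of the surface and secreted products, Emcn had the largest fold changes of the 10 genes in both comparisons with PVASCs. It encodes endomucin, a sialomucin of capillary and venous endothelium, and lies on chr3:137341067-137432185 (+). PVASC libraries had 274, 278 and 286 CPM, Sub-ASC libraries 18.6, 21.4 and 20.6 CPM, and Ab-ASC libraries 9.28, 11.9 and 10.6 CPM. PVASCs stood far above the other groups, which were themselves close but separate. Emcn was 13.8-fold above Sub-ASCs in PVASCs (log2 fold change 3.79, SE 0.082, adjusted p = 7.36e-13, edgeR) and 26.3-fold higher than in Ab-ASCs (4.71, SE 0.088, adjusted p = 3.47e-12). Of all genes tested, 4.32% passed the test with levels in PVASCs at least 8-fold those of Sub-ASCs, and Emcn was the only member to do so. Against Ab-ASCs that share was 1.95%, and the members were Emcn, Cdh5, Pecam1, Egfl7 and Erg. No member was 8-fold higher in Ab-ASCs than in Sub-ASCs, as 3.81% of all genes were. Sub-ASCs were 1.90-fold above Ab-ASCs (adjusted p = 8.95e-07).

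Egfl7 encodes a protein that endothelial cells secrete into the matrix and hosts the microRNA miR-126 in an intron. It lies on chr2:26580014-26593120 (+). Its CPM values were 83.1, 81.4 and 78.3 in PVASCs, 21.6, 18.3 and 23.4 in Sub-ASCs and 6.60, 6.53 and 6.19 in Ab-ASCs. All groups were separate. It was 3.84-fold above Sub-ASCs in PVASCs (log2 fold change 1.94, SE 0.082, adjusted p = 3.76e-10, edgeR), 12.6-fold higher than in Ab-ASCs (3.65, SE 0.095, adjusted p = 3.72e-11) and 3.27-fold higher in Sub-ASCs than in Ab-ASCs (6.98e-09). The rows Mir126a and Mir126b had 0 reads in every library, and this library type does not capture mature microRNAs. Gm20532, a protein-coding row on the same strand that shares 6482 bases with Egfl7, also had 0 reads in every library, and how reads on bases of more than 1 gene were counted is not given in the sources used here. Egfl7 and Agpat2, on the other strand, share 64 bases, and the kit does not mark the strand. Agpat2 had between 530 and 875 reads per library, so the part of those reads that could fall on the shared bases was not measured.

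Vwf, the large glycoprotein that binds platelets to an injured vessel wall, was among the lowest members. It lies on chr6:125546774-125686679 (+). Read counts were 92, 79 and 60 in PVASCs, 37, 51 and 43 in Sub-ASCs and 35, 37 and 38 in Ab-ASCs, or 2.81, 2.68 and 1.91 CPM, 1.59, 2.003 and 1.64 CPM, and 1.88, 1.64 and 1.69 CPM. PVASC replicate 3 was the low library of its group and fell within the range of Sub-ASCs. Vwf was 1.41-fold above Sub-ASCs in PVASCs (log2 fold change 0.50, SE 0.19, 95% interval 0.08 to 0.92, adjusted p = 0.0352, edgeR) and 1.42-fold higher than in Ab-ASCs (0.51, SE 0.20, 95% interval 0.08 to 0.94, adjusted p = 0.0448). Both calls rest on few reads. The first was lost when Sub-ASC replicate 1 (adjusted p = 0.107), Sub-ASC replicate 3 (0.101), PVASC replicate 1 (0.128) or PVASC replicate 2 (0.0957) was left out, and the second with DESeq2 (adjusted p = 0.0571) and in 7 of 9 fits that left out a library (up to 0.162). Sub-ASCs and Ab-ASCs were not told apart (-0.01, 95% interval -0.47 to 0.45, adjusted p = 0.968).

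Among the transcription factors, Erg maintains the expression of endothelial junction genes and lies on chr16:95359169-95586593 (-). PVASC libraries had 39.7, 37.8 and 37.5 CPM, Sub-ASC libraries 11.7, 11.7 and 10.6 CPM and Ab-ASC libraries 2.74, 2.67 and 1.96 CPM. Each group was separate, with Ab-ASC libraries at 44 to 60 reads. Erg was 3.38-fold above Sub-ASCs in PVASCs (log2 fold change 1.76, SE 0.087, adjusted p = 1.83e-09, edgeR) and 15.6-fold higher than in Ab-ASCs (3.97, SE 0.11, adjusted p = 5.73e-11). Its step between Sub-ASCs and Ab-ASCs, 4.62-fold (SE 0.12 on the log2 scale, adjusted p = 3.65e-09), was the largest among the 7 genes with the common order.

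Fli1, the other ETS factor of endothelium and a factor of megakaryocytes, lies on chr9:32422204-32542861 (-). Its CPM values were 21.3, 21.0 and 21.2 in PVASCs, 3.82, 4.52 and 5.11 in Sub-ASCs and 2.68, 3.11 and 3.70 in Ab-ASCs. PVASC libraries were nearly equal, and the highest Ab-ASC library lay just below the lowest Sub-ASC library. Fli1 was 4.73-fold above Sub-ASCs in PVASCs (log2 fold change 2.24, SE 0.12, adjusted p = 2.65e-09, edgeR), 6.70-fold higher than in Ab-ASCs (2.73, SE 0.12, adjusted p = 3.99e-09) and 1.42-fold higher in Sub-ASCs than in Ab-ASCs (0.00764). The 6 rows within the span of Fli1 (Gm37082, Gm38346, Gm38292, Gm37474, Gm27201 and Gm22060) had at most 11 reads in any library, and the one with most reads, Gm37082, had 1.42% of those of Fli1.

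Sox17 lies on chr1:4490931-4497354 (-), and the row Gm37587, which overlaps it on the other strand, had 1 read over all libraries. It had 90, 79 and 74 reads in PVASCs, 78, 60 and 67 reads in Sub-ASCs and 35, 51 and 36 reads in Ab-ASCs, or 2.75, 2.68 and 2.35 CPM, 3.35, 2.36 and 2.55 CPM, and 1.88, 2.27 and 1.60 CPM. PVASCs and Sub-ASCs overlapped, and Ab-ASC libraries lay below both. The log2 fold change of PVASCs against Sub-ASCs was -0.08 with a 95% interval from -0.47 to 0.31 (adjusted p = 0.699, edgeR), which does not reach the size seen for the 7 genes above. Sox17 was 1.44-fold higher in Sub-ASCs than in Ab-ASCs (adjusted p = 0.0306), a call that was lost without Sub-ASC replicate 1 (0.132), Ab-ASC replicate 1 (0.0553) or Ab-ASC replicate 3 (0.124). Against Ab-ASCs, PVASCs had a log2 fold change of 0.43 (SE 0.19, adjusted p = 0.072), which passed the threshold when Ab-ASC replicate 2 was left out (0.0412).

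Levels of different genes were compared per length, as FPKM, which divides the counts by the total of the library and by the length given for the gene. In PVASCs, Emcn (56.4 ± 1.25 FPKM, SD, n = 3) and Cdh5 (54.3 ± 0.576) led, followed by Pecam1 (31.5 ± 0.497), Egfl7 (24.7 ± 0.755), Erg (12.1 ± 0.411), Esam (10.7 ± 0.371) and Fli1 (6.64 ± 0.0696). Libraries overlapped in that order only for the next pair, Cldn5 (0.614 ± 0.148 FPKM) and Sox17 (0.594 ± 0.0480), and Vwf was last (0.168 ± 0.0330). In Sub-ASCs, Cdh5 led at 10.8 ± 0.582 FPKM (SD, n = 3), Emcn took the fifth place at 3.65 ± 0.261, and Cldn5 at 6.22 ± 0.174 overlapped with Egfl7 at 5.76 ± 0.696. In Ab-ASCs, Cdh5 also led at 3.82 ± 0.208 FPKM (SD, n = 3), and Pecam1, Emcn and Egfl7 followed at 1.87 ± 0.159, 1.83 ± 0.267 and 1.68 ± 0.0552, with neighbours overlapping. Vwf was the lowest member per length in all groups, at 0.106 ± 0.0140 FPKM in Sub-ASCs and, in Ab-ASCs, 0.101 ± 0.00456 FPKM. By mean FPKM, 9 of the 10 genes were highest in PVASCs, and 8 were with TMM-scaled totals, since Sox17 then was highest in Sub-ASCs.

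To see whether the genes kept a fixed proportion to each other, reads of each were set against 1000 reads of Cdh5 in the same library, which needs no scaling between libraries. Egfl7 kept its proportion best, at 378 to 394 reads in PVASCs, 353 to 398 in Ab-ASCs and 371 to 524 in Sub-ASCs. Pecam1 had 849 to 878 reads in PVASCs, 938 to 1041 in Sub-ASCs and 666 to 774 in Ab-ASCs. The libraries of Egfl7 overlapped between groups, and those of Pecam1 did not.

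Emcn was not in a fixed proportion to Cdh5, with 1299 to 1380 reads per 1000 Cdh5 reads in PVASCs, 406 to 463 in Sub-ASCs and 560 to 681 in Ab-ASCs. Erg had 181 to 188 reads in PVASCs, 238 to 255 in Sub-ASCs and 112 to 165 in Ab-ASCs. The order of the groups thus differed between Emcn and Erg.

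Fli1 had 101 to 102 reads per 1000 Cdh5 reads in PVASCs, within the 83.5 to 115 of Sub-ASCs and below the 162 to 211 of Ab-ASCs. Esam had 130 to 137.5 reads in PVASCs, 149 to 175 in Sub-ASCs and 189 to 274 in Ab-ASCs. Both were thus largest relative to Cdh5 in the group where Cdh5 itself was lowest.

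The 3 remaining genes, like Esam, were lowest relative to Cdh5 in PVASCs. Cldn5 had 184.5 to 207 reads per 1000 Cdh5 reads in Sub-ASCs, 38.3 to 68.5 in Ab-ASCs and 3.04 to 4.87 in PVASCs. Sox17 had 47.9 to 73.2, 91.4 to 130 and 11.4 to 13.0 reads in these groups, and Vwf had 34.7 to 40.7, 94.4 to 113 and 9.21 to 13.3 reads. For each of the 3 genes, no 2 groups overlapped. These proportions are a description and were not tested.

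**Figure D3:**
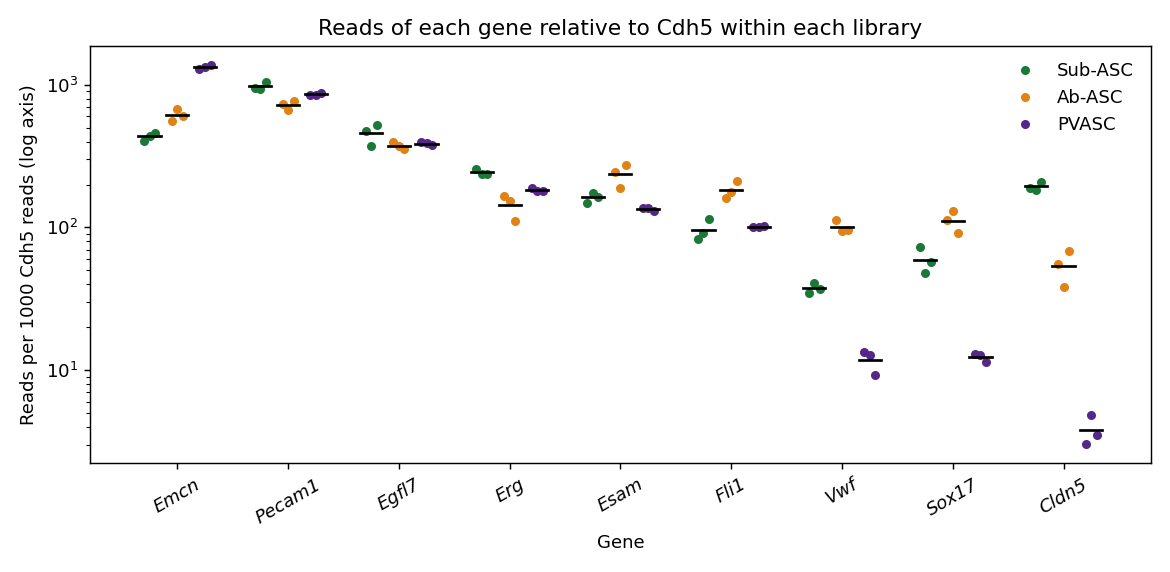
Reads of each gene per 1000 Cdh5 reads in the same library (log axis), one point per library and a bar at the mean of 3 libraries, with Sub-ASC in green, Ab-ASC in orange and PVASC in purple. Egfl7 sits at a similar height in all groups (353 to 524 reads), and Emcn is highest in PVASCs. Esam, Vwf, Sox17 and Cldn5 are lowest there, Cldn5 at 3.04 to 4.87 reads.

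Another 67 endothelial genes were placed in 3 lists of receptors and ligands, surface and junction proteins, and factors, of which 66 were tested (Etv2 was not, with 2 reads in 1 Ab-ASC library and 0 elsewhere). In PVASCs, 49 of 66 were higher and 12 were lower than in Sub-ASCs (median log2 fold change 1.23), beside 34.7% and 35.7% of all genes. Against Ab-ASCs, 53 were higher and 9 were lower (2.07), beside 24.7% and 32.1% of all genes, and the 9 became 5 with only these 2 groups in the fit. In Ab-ASCs, 18 were higher and 40 were lower than in Sub-ASCs (-0.77), beside 37.0% and 38.3% of all genes. The summed level of the 67 genes had another order. It was 3735.3 to 3811.3 CPM in PVASCs, 2218.5 to 2312.5 CPM in Ab-ASCs and 1907 to 1967.7 CPM in Sub-ASCs. Ab-ASCs were thus above Sub-ASCs in the sum although more genes were lower there. Genes of high level weigh most in such a sum. Pdpn, also a gene of mesothelium and fibroblasts, had 571 to 678 CPM in Ab-ASCs and 410 to 420 CPM in Sub-ASCs. Efnb2 had 222 to 245 and 42.3 to 44.4 CPM, and Jam2 had 165 to 187 and 56.4 to 65.1 CPM. The common order of the 7 identity genes, PVASCs above Sub-ASCs above Ab-ASCs in all 3 tests, was seen for 24 of the 66 (2.10% of all genes tested). Another 11 had PVASCs above Ab-ASCs above Sub-ASCs (4.26% of all genes), an order no member had. As Cldn5 was, 11 were higher in Sub-ASCs than in both other groups (28.7% of all genes). A further 5 were higher in Ab-ASCs than in both others (20.9% of all genes), so both of these shares were below those over all genes. Of the genes highest in Ab-ASCs, Klf2 and Jam2 were not above PVASCs by mean FPKM, which is not TMM-scaled.

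The shares over all genes just given are the background for each single list as well. Of the 18 receptors and ligands, 13 were higher and 4 lower in PVASCs than in Sub-ASCs, 14 were higher and 3 lower than in Ab-ASCs, and 5 were higher and 11 lower in Ab-ASCs than in Sub-ASCs. Tie1, an orphan receptor of the angiopoietin system, had the common order at 49.2 ± 3.53 CPM in PVASCs, 9.06 ± 0.536 CPM in Sub-ASCs and 2.76 ± 0.485 CPM in Ab-ASCs (SD, n = 3), as did the phosphatase gene Ptprb at 64.4 ± 3.34, 8.32 ± 0.854 and 3.73 ± 0.944 CPM. Nos3, the endothelial nitric oxide synthase, was 15.9-fold higher in PVASCs than in Ab-ASCs (adjusted p = 1.09e-08, edgeR). Kdr, which encodes VEGFR2, was 2.34-fold above Sub-ASCs in PVASCs and 2.87-fold higher than in Ab-ASCs (log2 fold changes 1.23, SE 0.091, and 1.53, SE 0.095). Flt1, which encodes VEGFR1, was also highest in PVASCs but 2.64-fold higher in Ab-ASCs than in Sub-ASCs (log2 fold change 1.40, SE 0.073). Flt4, the VEGF receptor of lymphatic endothelium, was 5.56-fold above Sub-ASCs in PVASCs.

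Other receptors had another order. Tek, the angiopoietin receptor that pairs with Tie1, was 3.10-fold higher in Sub-ASCs than in PVASCs (46.0 ± 3.54 against 14.8 ± 0.493 CPM, SD, n = 3, adjusted p = 1.2e-09, edgeR). Acvrl1, a receptor for BMP9 in endothelium, was 5.20-fold higher (74.0 ± 0.874 against 14.2 ± 1.22 CPM). Dll4, the Notch ligand of arteries and sprouting tips, had 93, 137 and 133 reads in Sub-ASCs, 6, 9 and 9 in PVASCs and 0, 7 and 1 in Ab-ASCs. Aplnr, the apelin receptor, had 17, 20 and 14 reads in Sub-ASCs, 24, 12 and 19 reads in PVASCs and 1 read in each Ab-ASC library. Against a floor of 3 reads per library, Ab-ASCs were at least 4.79-fold lower than Sub-ASCs and at least 4.07-fold lower than PVASCs, while Sub-ASCs and PVASCs were not told apart (adjusted p = 0.537, edgeR). Ramp2, the adrenomedullin receptor partner, was 10.3-fold higher in Sub-ASCs than in Ab-ASCs. In the ephrin pair of arteries and veins, Efnb2 was 5.41-fold and Ephb4 1.86-fold higher in Ab-ASCs than in Sub-ASCs, and PVASCs were below Ab-ASCs for both, by 1.53-fold and 1.21-fold.

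Of the 27 surface and junction genes, 19 were higher and 7 lower in PVASCs than in Sub-ASCs, 22 were higher and 4 lower than in Ab-ASCs, and 6 were higher and 17 lower in Ab-ASCs than in Sub-ASCs. Against Sub-ASCs, the genes with the largest rise in PVASCs were Esm1, a proteoglycan of activated endothelium, at 258 ± 0.119 CPM in PVASCs, 3.63 ± 0.325 CPM in Sub-ASCs and 7.49 ± 0.822 CPM in Ab-ASCs (SD, n = 3), and Selp, the P-selectin that endothelial cells and platelets keep with Vwf in granules, at 177 ± 6.60, 4.54 ± 0.538 and 5.72 ± 0.423 CPM. Selp was thus 39.1-fold and 31.0-fold higher in PVASCs, where Vwf was 1.41-fold and 1.42-fold higher. Sele, the E-selectin of inflamed endothelium, was 30.2-fold above Sub-ASCs in PVASCs. Arhgef15, an exchange factor of endothelium, was 31.8-fold higher in PVASCs than in Ab-ASCs.

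Several surface genes were highest in Sub-ASCs. Gpihbp1, which carries lipoprotein lipase across capillaries, had 54, 69 and 82 reads in Sub-ASCs and 1 read in each PVASC library, at least 28.2-fold higher against the floor of 3 reads per library. Gja5, a connexin of arteries, had 35, 28 and 62 reads in Sub-ASCs and 1, 0 and 3 in PVASCs, at least 17.2-fold higher. In Ab-ASCs, Gpihbp1 had 2, 11 and 8 reads and was above PVASCs (adjusted p = 0.0019, edgeR). Gja5 had 2, 7 and 5 reads there, close to the threshold against PVASCs (adjusted p = 0.0442).

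Mmrn1, a multimerin of lymphatic endothelium and platelets, was 10.2-fold higher in Sub-ASCs than in PVASCs. Clec14a had 28.4 ± 1.07 CPM in Sub-ASCs, 12.3 ± 0.893 CPM in PVASCs and 0.921 ± 0.257 CPM in Ab-ASCs (SD, n = 3). Cd34 and the scavenger receptor gene Stab2 were 9.15-fold and 14.6-fold higher in Sub-ASCs than in Ab-ASCs. Cd34 is also a marker of adipose stromal cells. The junction gene Jam2 was 2.85-fold higher in Ab-ASCs than in Sub-ASCs, and Pdpn, a gene of lymphatic endothelium, mesothelium and fibroblasts, was 2.71-fold higher in Ab-ASCs than in PVASCs.

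Of the 21 factors tested, 17 were higher and 1 lower in PVASCs than in Sub-ASCs, 17 were higher and 2 lower than in Ab-ASCs, and 7 were higher and 12 lower in Ab-ASCs than in Sub-ASCs. The other SOX factors of the F group differed more than Sox17. Sox7 had 14.9 ± 0.486 CPM in PVASCs, 4.70 ± 0.695 CPM in Sub-ASCs and 0.523 ± 0.0728 CPM in Ab-ASCs (SD, n = 3), and Sox18, named here after its values were seen, had 35.1 ± 0.691, 6.14 ± 1.11 and 3.03 ± 0.268 CPM. Both had the common order with an adjusted p under 0.05 in every comparison. Lyl1, a helix-loop-helix factor of blood and endothelium, was 29.8-fold higher in PVASCs than in Ab-ASCs.

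Foxc2 and Gata2 parted Sub-ASCs from the other groups. Foxc2, a forkhead factor of lymphatic valves and arteries, had 0.770 ± 0.184 CPM in Sub-ASCs, 37.2 ± 1.10 CPM in Ab-ASCs and 54.4 ± 2.74 CPM in PVASCs (SD, n = 3). Gata2 had 3.36 ± 0.704, 47.1 ± 2.67 and 47.8 ± 1.83 CPM, with PVASCs and Ab-ASCs not told apart (log2 fold change 0.02, 95% interval -0.17 to 0.21, adjusted p = 0.851, edgeR). Mef2c was 7.94-fold higher in Sub-ASCs than in Ab-ASCs. The ETS factor Ets2, unlike Erg and Fli1, was highest in Sub-ASCs, 2.82-fold above PVASCs and 1.73-fold higher in Ab-ASCs than in PVASCs. Klf2, a factor induced by blood flow, was 2.60-fold higher in Ab-ASCs than in Sub-ASCs (adjusted p = 9.34e-10, edgeR). It was 1.11-fold higher in Ab-ASCs than in PVASCs, just within the threshold (adjusted p = 0.0466, edgeR). Mean FPKM, which is not TMM-scaled, was 23.9 in Ab-ASCs and 25.2 in PVASCs. The direction of this last difference thus depends on the scaling.

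The kinase gene Bmx had 109, 75 and 97 reads in PVASCs, 2, 7 and 6 in Sub-ASCs and 0 in every Ab-ASC library, so that PVASCs were at least 20.9-fold above Ab-ASCs. Tbx20, a T-box factor that the study chose from these same samples and examined for endothelial differentiation, had 394, 351 and 361 reads in PVASCs and 0 in all other libraries. Since it was chosen on these samples, it is not independent evidence of a direction, although the counts of genes higher in PVASCs above include it.

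**Figure D4:**
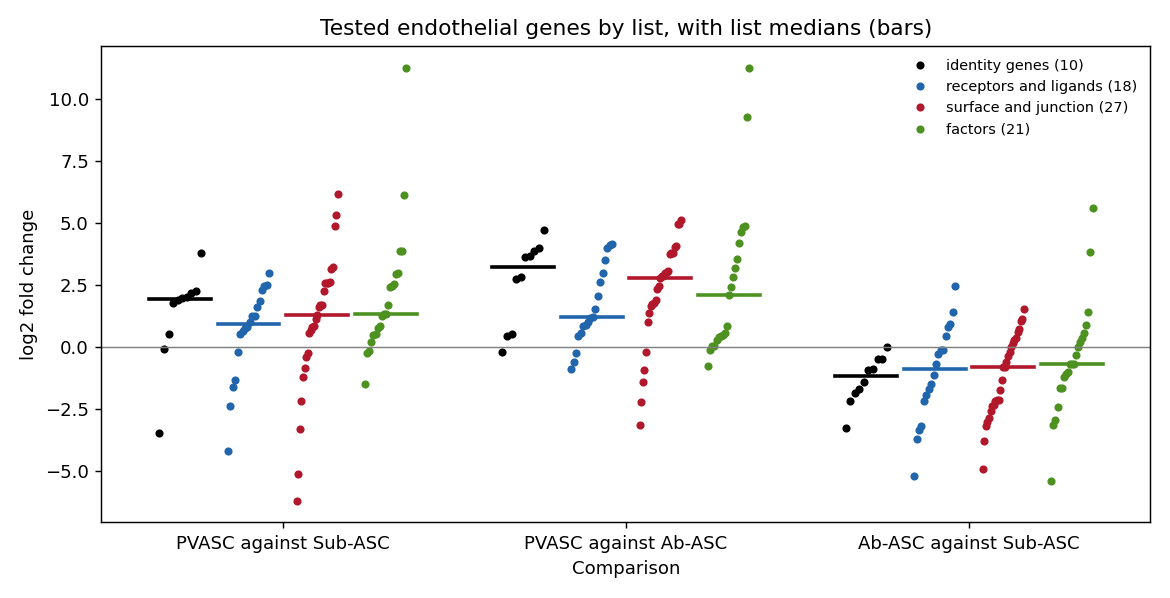
Fitted log2 fold changes of all tested genes in the 4 endothelial lists, ordered by size within each comparison, one point per gene with a bar at the median of the list. List medians are above 0 in both comparisons with PVASCs (0.89 to 3.20) and below 0 for Ab-ASCs against Sub-ASCs, and the points above 9 are Tbx20 and Bmx, whose fitted values against groups with 0 reads depend on the prior count and are not sizes.

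Markers of other cells that share some of these genes were read beside them, and their part in the results was not tested. The 14 haematopoietic markers summed to 186 to 190 CPM in Sub-ASCs, 154 to 177 CPM in Ab-ASCs and 155 to 161 CPM in PVASCs, with none at 0 in all libraries of a group. Of these, 2 were higher and 11 lower in PVASCs than in Sub-ASCs, and 3 were higher and 5 lower than in Ab-ASCs. In Ab-ASCs, 2 were higher and 12 lower than in Sub-ASCs.

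The 12 platelet markers summed to 25.4 to 29.1 CPM in Sub-ASCs, 74.0 to 91.6 CPM in Ab-ASCs and 33.8 to 36.2 CPM in PVASCs, and only 5 of them had enough reads for a test. The defining platelet genes Gp6 and Gfi1b had 0 reads in all 9 libraries. Most of the sum in Ab-ASCs was Pf4, platelet factor 4, at 71.9 CPM against 19.1 CPM in Sub-ASCs and 6.35 CPM in PVASCs. Of the 5 genes tested, 1 was higher and 2 lower in PVASCs than in Sub-ASCs, 3 were higher and 2 lower than in Ab-ASCs (median log2 fold change 0.54), and 3 were higher and 2 lower in Ab-ASCs than in Sub-ASCs.

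The 8 pericyte markers summed to 161 to 166 CPM in PVASCs, 306 to 312 CPM in Sub-ASCs and 121 to 133 CPM in Ab-ASCs. Of 7 tested, 4 were higher and 3 lower in PVASCs than in Sub-ASCs (median log2 fold change 0.66, against the order of the sums), 3 were higher and 2 lower than in Ab-ASCs, and 2 were higher and 5 lower in Ab-ASCs than in Sub-ASCs (-3.02). The 14 mesothelial markers, for cells that cover abdominal fat, summed to 62.0 to 63.4, 8.15 to 9.52 and 137 to 144 CPM, with Upk1b, Lrrn4 and Muc16 at 0 in Sub-ASCs. Of 12 tested, 10 were higher and 1 lower in PVASCs than in Sub-ASCs, and 3 were higher and 9 lower than in Ab-ASCs.

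The groups also differed in genes of other states. The 10 proliferation markers summed to 759 to 771 CPM in PVASCs, 757 to 857 CPM in Ab-ASCs and 65.8 to 72.5 CPM in Sub-ASCs. All 10 were higher in PVASCs and in Ab-ASCs than in Sub-ASCs, and 2 were higher and 7 lower in PVASCs than in Ab-ASCs. The 12 interferon response genes summed to 98.7 to 99.96, 94.9 to 108 and 2501.5 to 2617 CPM. All 12 were lower in PVASCs and in Ab-ASCs than in Sub-ASCs, and 7 were higher and 1 lower in PVASCs than in Ab-ASCs. Sub-ASCs, where Cldn5 was high, thus stood apart in both, and whether cell division or interferon response had a part in any value above was not tested.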

How the data were processed

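RNA was extracted with Trizol and libraries were made with the NEBNext Ultra RNA kit, which does not mark the strand. The table that the authors deposited holds raw read counts, not normalized and not filtered, beside the length in bases, the position and the biotype of each gene. CASAVA 1.8, Bowtie 0.12.2, featureCounts 1.5.0-p3 and the builds mm8 and mm10 are named in the submitters' processing notes, without their roles. The strand setting of the counting and the treatment of reads with several matches are not given in the sources used here.

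Libraries were grouped by the tissue label. Tests were run on the counts in R 4.3.3 with edgeR 4.0.16, which uses limma 3.58.1 (filterByExpr by group, TMM, quasi-likelihood F-test, all 9 libraries in 1 fit without covariates, Benjamini-Hochberg adjustment, threshold 0.05), a procedure tested on simulated data first. SEs were calculated as the absolute log2 fold change divided by the square root of F. FPKM was calculated from counts, listed length and library total. For a group with no library above 3 reads, the fold is a lower bound against 3 reads in each library. Library totals were 20524173 to 29881036 reads, which limits precision for Cldn5, Sox17 and Vwf most. No libraries of a group agreed within sampling noise, so each was counted.

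The members and lists were chosen with earlier results of these data known. The text names the 10 members, rows overlapping them, Kdr and Flt1, and from each endothelial list the 3 called genes with the largest log2 fold change in each direction and comparison. Outside this rule it names Sox18, chosen after its values were seen, Etv2, which was not tested, and markers of other cells that were at 0 or led their list. Each choice was changed in turn, to DESeq2 1.42.0, to RLE size factors, to all genes with a read, to genes with 10 reads or more in all libraries, to a fit of 2 groups, to a replicate block, to a required log2 fold change of 1 or more in size, to leaving out each library, to a detection floor of 10 reads and to 20 draws of each library down to the smallest total. Promoter windows were searched, and figures drawn, with Python 3.11.15, pandas 2.3.3 and matplotlib 3.10.9. The study's single-cell, protein and animal experiments were not analysed here.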

Additional observations from a re-analysis of the deposited data

How the results depend on the processing

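Emcn, Cdh5, Pecam1, Egfl7, Erg, Esam and Fli1 kept their direction and their call in all 3 comparisons under each alternative fitted (DESeq2, RLE, both filters, 2 groups, replicate block, each library left out), except that Emcn, Esam and Fli1 between Ab-ASCs and Sub-ASCs did not reach an absolute log2 fold change of 1. Under that limit 5 members instead of 9 were called between Ab-ASCs and Sub-ASCs, and of all genes 5328 were called for PVASCs against Sub-ASCs, 2551 for PVASCs against Ab-ASCs (1673 higher and 878 lower) and 6241 for Ab-ASCs against Sub-ASCs. The floor of 10 reads and the 20 draws were applied to detection alone, where 10 of 10 members passed. The direction changed only where the main difference had not passed the test. Sox17 in PVASCs against Sub-ASCs was at 0.08 on the log2 scale without Sub-ASC replicate 1 (-0.18 to 0.08 over the 9 fits that left out a library), and Cldn5 in PVASCs against Ab-ASCs was at 0.02 without Ab-ASC replicate 3 (-0.44 to 0.02). Vwf in Ab-ASCs against Sub-ASCs was at 0.00046 without the low-count filter and at -0.07 to 0.11 when a library was left out. The cause was not tested.

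When each library was left out in turn, 8 to 9 members were called for PVASCs against Sub-ASCs, 7 to 8 for PVASCs against Ab-ASCs and 8 to 9 for Ab-ASCs against Sub-ASCs, and 59 to 62, 58 to 62 and 55 to 59 genes of the 3 endothelial lists. Vwf against Ab-ASCs was also lost without the low-count filter (adjusted p = 0.0649, edgeR), and Sox17 against Ab-ASCs was gained with at least 10 reads in every library (0.0452) and with only the 2 groups compared (0.0397). Same-numbered libraries did not deviate together (correlations of -0.051 to 0.095 across genes). This cannot decide whether a number marks a shared mouse or culture, which the labels do not say. With the replicate block 9, 7 and 9 members were called, since Vwf against Ab-ASCs was lost (adjusted p = 0.0561), and it changed no other call of a member. Depth limits what can be said of Cldn5 outside Sub-ASCs, at 15 to 30 reads per library, and of Vwf and Sox17, at 35 to 92 reads.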
